A study of Homo sapiens with 3 samples.

Results

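Siglecs are cell surface lectins of the immunoglobulin superfamily that bind sialic acid, the sugar that caps many glycans on mammalian cells. Described here are SIGLEC5, SIGLEC6, SIGLEC7, SIGLEC8, SIGLEC9, SIGLEC10, SIGLEC12, SIGLEC14, CD33 and CD22, which were picked by name and make up 10 of the 57773 Ensembl gene IDs in the count table. The name SIGLEC5 belongs to a second ID as well, so the family occupies 11 rows. The cells were NB4, a human line established from acute promyelocytic leukaemia that carries the PML-RARA fusion, grown in RPMI medium with serum. Polyadenylated RNA was sequenced from 1 library of NB4 cells with a non-targeting control hairpin and from 2 libraries of NB4 cells with a hairpin, numbered 2 or 3, against ARID1B, a subunit of the BAF chromatin remodelling complex. No treatment, time after silencing or clone is named in the labels, and nothing says that the libraries came from separate cultures.

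Most receptors of the CD33-related branch carry a cytoplasmic immunoreceptor tyrosine-based inhibitory motif (ITIM), which after phosphorylation by Src family kinases binds the phosphatases SHP-1 and SHP-2 and dampens activation of the cell. SIGLEC14 lacks such a motif and instead pairs with the adaptor DAP12, which signals through an activating motif (ITAM). CD33 is the classical surface marker of myeloid cells and a drug target in acute myeloid leukaemia, whereas CD22 is a B cell receptor. SIGLEC8 marks eosinophils and mast cells, SIGLEC6 is also found on mast cells, SIGLEC7 is best known from NK cells, and SIGLEC5, SIGLEC9 and SIGLEC14 are found on neutrophils and monocytes.

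By their point values, 8 of the 10 genes stood at least 2-fold higher under both ARID1B hairpins than in the control library. These were SIGLEC5, SIGLEC6, SIGLEC7, SIGLEC8, SIGLEC9, SIGLEC10, SIGLEC12 and SIGLEC14. SIGLEC9 had only 2 counts in the control, 28 with hairpin 2 and 8 with hairpin 3. Its counting interval under hairpin 3, 0.795 to 38.5 times the control, includes the control level, so a rise there is not resolved. CD33, the most abundant of the 10 genes in the control, and CD22 stood near their control level. Of all genes tested, 5.17% had a fitted fold change of at least 2 upward and 3.36% downward. In the 2 hairpin libraries the 7 of these 8 genes with more than a few control counts stood between 2.66 and 17.8 times the control. All 10 genes lie on chromosome 19, and 9 of them, CD22 excepted, form a cluster. The family was proposed with results of this contrast known, so the values of its genes are given as a description, without a test.

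The start regions of the clustered genes show how closely these paralogues are related. The stretches below end 1 base before the transcript start in the RefSeq table (GRCh38.p14), or before the annotated gene start for SIGLEC7, and run 5′ to 3′ on the gene's own strand. The counts were made on another build, hg19, so these coordinates belong to the sequences only. The first set shows 4 genes with like start regions, SIGLEC7 (chr19:51142209-51142300, plus strand), SIGLEC8 (chr19:51458455-51458574, minus strand), SIGLEC9 (chr19:51124786-51124905, plus strand) and SIGLEC12 (chr19:51501801-51501920, minus strand), with AGGTCA, the core site bound by many nuclear receptors, in capitals where it occurs on either strand:
SIGLEC7: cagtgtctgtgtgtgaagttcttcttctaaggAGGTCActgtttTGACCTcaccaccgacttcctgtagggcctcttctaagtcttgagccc
SIGLEC8: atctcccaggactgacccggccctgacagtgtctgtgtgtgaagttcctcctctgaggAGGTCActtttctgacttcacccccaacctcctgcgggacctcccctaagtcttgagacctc
SIGLEC9: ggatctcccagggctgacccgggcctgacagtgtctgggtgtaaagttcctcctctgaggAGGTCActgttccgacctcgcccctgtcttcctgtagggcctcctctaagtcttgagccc
SIGLEC12: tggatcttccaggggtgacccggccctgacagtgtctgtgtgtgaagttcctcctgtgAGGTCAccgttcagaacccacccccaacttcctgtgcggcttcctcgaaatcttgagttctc

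The second set pairs SIGLEC5 (chr19:51630402-51630521, minus strand) with SIGLEC14 (chr19:51646826-51646945, minus strand), which code for an inhibitory and an activating receptor, with the E-box CACGTG in capitals:
SIGLEC5: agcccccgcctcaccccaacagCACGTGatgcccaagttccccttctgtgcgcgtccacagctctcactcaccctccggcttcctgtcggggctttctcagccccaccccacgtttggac
SIGLEC14: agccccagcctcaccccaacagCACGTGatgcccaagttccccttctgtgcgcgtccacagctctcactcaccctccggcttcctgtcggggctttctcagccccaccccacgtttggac

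The third set sets CD33 (chr19:51224960-51225079, plus strand), which stood near its control level, beside SIGLEC6 (chr19:51531671-51531790, minus strand), with GAGGAA, a core of ETS factors of the PU.1 type, in capitals on either strand:
CD33: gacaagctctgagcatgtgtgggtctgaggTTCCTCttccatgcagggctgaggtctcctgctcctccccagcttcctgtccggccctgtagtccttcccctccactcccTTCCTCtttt
SIGLEC6: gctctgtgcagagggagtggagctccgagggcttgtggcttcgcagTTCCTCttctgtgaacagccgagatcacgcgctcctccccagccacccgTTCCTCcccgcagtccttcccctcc

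The stretches of SIGLEC5 and SIGLEC14 differed at 1 of 120 bases. Whole windows of 300 bases, 250 before to 50 after the transcript start in the RefSeq table, were used for alignments and motif searches. For SIGLEC7 that start lies 158 bases after the annotated gene start, so its window reaches only 92 bases before the gene. A local alignment of SIGLEC14 with SIGLEC5 held 240 identical bases in 251 columns (95.6%). SIGLEC9 shared 249 bases in 292 columns with SIGLEC8 (85.3%) and 256 in 302 with SIGLEC12 (84.8%), and SIGLEC7 shared 130 in 142 with SIGLEC9 (91.5%). CD33 and SIGLEC6 shared 174 in 245 (71.0%).

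AGGTCA, searched on both strands, occurred in the windows of 5 of the 10 genes, the 4 printed first and SIGLEC14, against 13.8% of all 35116 RefSeq windows of this length. In SIGLEC8 and SIGLEC12 it began 62 bases before the start and in SIGLEC9 60 bases before, in windows that align over most of their length, so these are not separate occurrences. The first AGGTCA of SIGLEC7 lies where its printed stretch matches that of SIGLEC9, so it is not separate either. GAGGAA occurred in 6 of 10 (27.9% of all windows), among them CD33, and CACGTG in 2 of 10, SIGLEC5 and SIGLEC14 (7.26%). A GAGGAA match began 76, 74 and 73 bases before the start in SIGLEC8, SIGLEC9 and SIGLEC12. CACGTG began 98 bases before it in both SIGLEC5 and SIGLEC14. Such matches in aligned windows are not separate occurrences. AGATAA or TGATAA, the usual GATA letters (16.3%), TTGCNNAA of C/EBP factors (10.5%) and TGTGGT of RUNX factors (13.1%) occurred in 0 of 10. Each was searched on both strands, none of these motifs contains another, and a match describes the sequence only.

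The libraries held 59997475 to 62954803 counts. Levels are in CPM, read counts scaled to the library size after TMM normalisation, and a gene with 0 counts could stand at up to 0.0499 CPM (3 counts). The silenced gene, ARID1B, was read 5268 times in the control and 2209 and 2234 times under hairpins 2 and 3, 43.3% and 42.2% of the control level (log2 -1.23 ± 0.125 SE, edgeR quasi-likelihood test, adjusted p = 1.4e-05). All 10 family genes were among the 20382 tested. SIGLEC9 entered through the hairpin 2 library only, since its control and hairpin 3 counts (2 and 8) were under the filter. In that fit 7 of the 10 were called higher and 0 lower at an adjusted p under 0.05, where 8.7% of all genes tested were called, 5.49% higher and 3.21% lower. Of all calls 63.1% were higher, against 73.7% with DESeq2 and 53.8% with upper quartile factors. Since the family was chosen with this contrast known, nothing is read from that difference. The median log2 fold change of the 10 was 2.55, against -0.01 over all genes tested.

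The spread of each gene in this fit comes from the difference between the 2 hairpins, with 1 residual degree of freedom. The test draws it towards the trend over all genes, with 14.8 prior degrees of freedom. The p-values therefore rest mostly on spread between the hairpins pooled over genes, and measure no other spread. Without a filter on low counts the test called 0 genes in edgeR, family genes included (3218 at an unadjusted p under 0.05, against 4226 with the filter).

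CD33 (ENSG00000105383) was read 3273 times in the control, 3938 times with hairpin 2 and 3708 times with hairpin 3, which is 52.7, 65.5 and 59.5 CPM. Both hairpin libraries stood slightly above the control, at 1.24 times its level for hairpin 2 (1.19 to 1.302, an exact 95% counting interval, as for the ratios that follow) and 1.13 times for hairpin 3 (1.08 to 1.18), and the fitted log2 fold change was 0.25 ± 0.133 (SE). CD22 (ENSG00000012124) had 19, 22 and 16 counts, 0.306, 0.366 and 0.257 CPM, with the control between the hairpins (log2 0.02 ± 0.538). CD22 was thus detected, but at a level where counting error alone spans a change of 2-fold, 0.618 to 2.34 times the control for hairpin 2 and 0.403 to 1.72 times for hairpin 3. Of the B cell markers, MS4A1 and CR2 had 0 counts in every library.

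SIGLEC10 (ENSG00000142512), an inhibitory receptor best known from B cells, gave 412 counts in the control, 3037 with hairpin 2 and 2079 with hairpin 3. Its level went from 6.64 CPM in the control to 50.5 and 33.4 CPM, 7.61 times (6.87 to 8.46) and 5.03 times (4.52 to 5.60) the control, with a fitted log2 fold change of 2.66 ± 0.222 (SE). The protein binds CD24 and CD52 on other cells, and both hairpin libraries lay far above the control. In GENCODE 29 it shares 22.6% of its exon length with genes annotated on the other strand. The antisense genes SIGLEC10-AS1 (166, 1071 and 722 counts) and SIGLEC10-AS2 (56, 345 and 219) had the same order of libraries, and without the strand setting of the counting, reads of SIGLEC10 and of its antisense genes cannot be told apart.

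SIGLEC5 (ENSG00000105501) had 381, 1577 and 1426 counts in the control and under hairpins 2 and 3, or 6.14, 26.2 and 22.9 CPM, which is 4.27 times (3.82 to 4.79) and 3.73 times (3.33 to 4.18) the control. The second ID of that name, ENSG00000268500, had 315, 1222 and 1083 counts. Every 50-base window of its transcripts (1877 of 1877) also occurs in transcripts of another gene, chiefly of the first SIGLEC5 ID. Of the windows of the first ID 82.2% also occur in transcripts of other genes, chiefly of the second ID. The rows are therefore not separate measurements, and the level of either may miss or include reads of the other. SIGLEC12 (ENSG00000254521), whose human form has lost the arginine needed to bind sialic acid, had 434, 1251 and 1160 counts (6.99, 20.8 and 18.6 CPM). At 2.98 times (2.67 to 3.33) and 2.66 times (2.38 to 2.98) the control, it had the smallest fitted fold change (log2 1.49 ± 0.172) among the 8 genes that stood at least 2-fold higher.

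SIGLEC6 (ENSG00000105492) had 237 control counts, 1164 with hairpin 2 and 1378 with hairpin 3 (3.82, 19.4 and 22.1 CPM), 5.07 times (4.41 to 5.86) and 5.79 times (5.04 to 6.68) the control (fitted log2 2.44 ± 0.189). SIGLEC8 (ENSG00000105366), which on eosinophils can trigger cell death when engaged, had 21, 130 and 144 counts (0.338, 2.16 and 2.31 CPM), 6.39 times (4.01 to 10.7) and 6.83 times (4.30 to 11.4) the control (fitted log2 2.72 ± 0.398). For these 2 genes the library of hairpin 3 had the highest value, whereas hairpin 2 was highest for each of the other 8. SIGLEC6 shares 16.5% of its exon length with an antisense gene, ENSG00000268777, which had 74, 373 and 503 counts.

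SIGLEC7 (ENSG00000168995) had 10 control counts, 172 with hairpin 2 and 116 with hairpin 3, or 0.161, 2.86 and 1.86 CPM. Its ratios, 17.8 (9.43 to 37.7) and 11.6 (6.06 to 24.7), were the highest among the 7 genes called, with wide intervals that come from the 10 control counts (fitted log2 3.85 ± 0.513). Although SIGLEC7 and SIGLEC9 are close relatives, 0.366% of the 50-base windows of SIGLEC7 transcripts occur in another gene's transcripts, so few reads of that length could be assigned to both. An antisense gene, ENSG00000269072, covers part of SIGLEC7 and had 14, 71 and 69 counts. SIGLEC9 (ENSG00000129450) was scarce, with 2, 28 and 8 counts (0.0322, 0.466 and 0.128 CPM), and its ratio under hairpin 3 was 3.98 with an interval from 0.795 to 38.5 (fitted log2 3.11 ± 1.09). With a prior count of 2 added to each library, which lowers ratios of such scarce genes, its log2 ratio under hairpin 3 was 1.31.

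SIGLEC14 (ENSG00000254415), the activating receptor paired with SIGLEC5, had 52 control counts, 376 with hairpin 2 and 286 with hairpin 3 (0.838, 6.25 and 4.59 CPM), 7.47 times (5.58 to 10.2) and 5.48 times (4.07 to 7.51) the control (fitted log2 2.69 ± 0.314). Of its 50-base windows 33.1% also occur in transcripts of other genes, SIGLEC5 first, so part of its reads may belong to SIGLEC5. For CD33, CD22, SIGLEC6, SIGLEC8, SIGLEC9 and SIGLEC12 this share was between 0.214% and 1.11%, and for SIGLEC10 it was 8.43%.

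**Figure D1:**
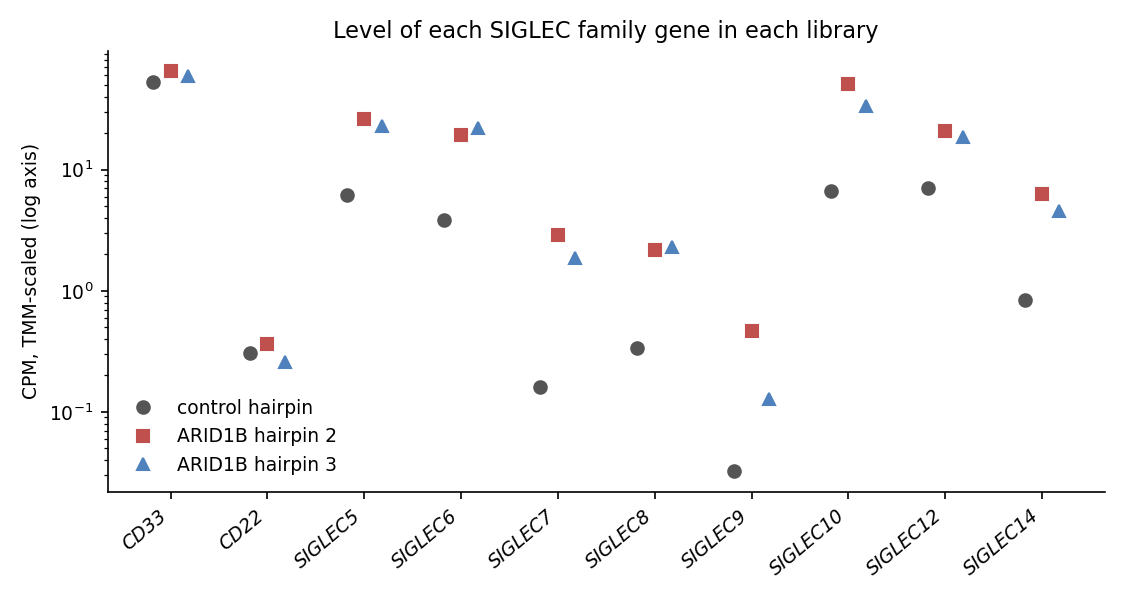
Level of each family gene in each of the 3 libraries, in CPM on a log axis; each symbol is 1 library. The control library lies lowest for every gene except CD22, where it lies between the hairpins, and for CD33 all 3 libraries lie within 52.7 to 65.5 CPM.

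**Figure D2:**
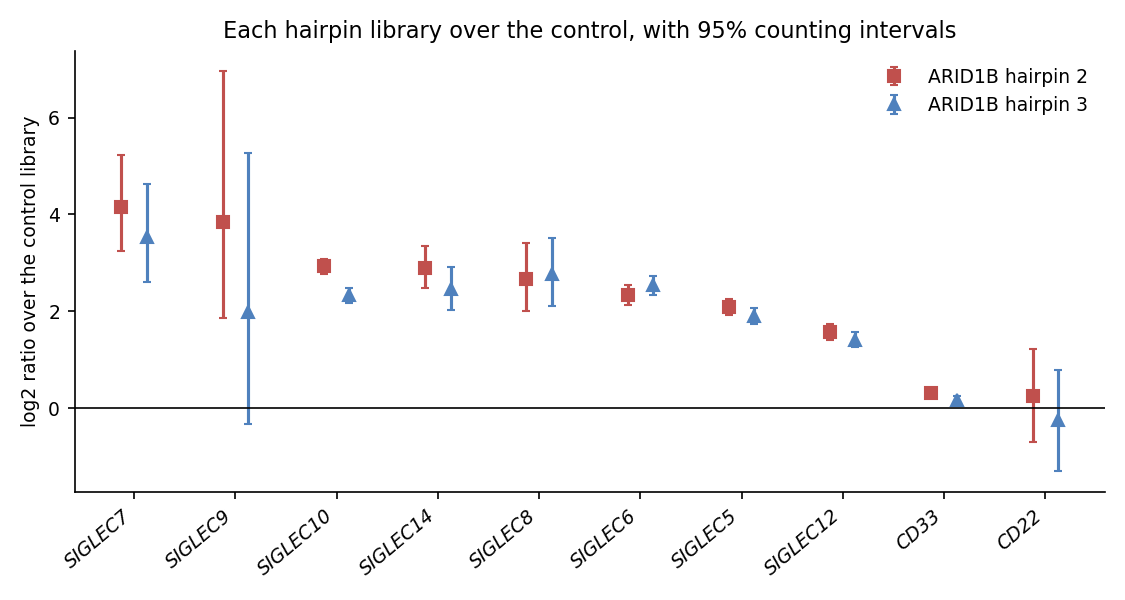
Log2 ratio of each ARID1B hairpin library over the control library; bars are exact 95% counting intervals and leave out variation between cultures. The intervals of CD22, and of SIGLEC9 under hairpin 3, include a log2 ratio of 0.

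The make-up of the family differed between the libraries. The 10 genes together summed to 78.0 CPM in the control, 194 with hairpin 2 and 166 with hairpin 3, and without CD33 they had 25.3, 129 and 106 CPM. CD33 gave 67.6% of the family's counts in the control (66.3 to 68.9, a 95% Wilson interval), but 33.7% of them with hairpin 2 (32.8 to 34.5) and 35.9% with hairpin 3 (35.01 to 36.86).

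To compare genes, CPM were divided by the exon length of each gene in GENCODE 29. On this scale (CPM per kilobase) CD33 led the control library at 8.82, followed by SIGLEC12 at 3.18, SIGLEC5 at 2.60, SIGLEC10 at 1.81, SIGLEC6 at 1.48 and SIGLEC14 at 0.402, with SIGLEC8, SIGLEC7, CD22 and SIGLEC9 between 0.107 and 0.0127. In the hairpin libraries 5 genes came close together: SIGLEC10 stood at 13.8 and 9.10, CD33 at 11.0 and 9.96, SIGLEC5 at 11.1 and 9.70, SIGLEC12 at 9.45 and 8.46, and SIGLEC6 at 7.53 and 8.59 CPM per kilobase. The range of SIGLEC10 overlapped those of CD33, SIGLEC5 and SIGLEC12, and the range of SIGLEC12 overlapped that of SIGLEC6, so the order of neighbours among these 5 genes is not resolved. SIGLEC14 (3.004 and 2.20), SIGLEC7 (1.40 and 0.911) and SIGLEC8 (0.682 and 0.729) followed without overlap, and the ranges of SIGLEC9 and CD22 at the bottom overlapped. The order depends on the lengths, which count all annotated exons: 5975 bases for CD33, 3667 for SIGLEC10 and 2360 for SIGLEC5. For SIGLEC5 it also depends on how reads shared with its second ID were counted, which is not given. In CPM, without this division, CD33 stood highest in every library, at 65.5 and 59.5 under hairpins 2 and 3 against 50.5 and 33.4 for SIGLEC10.

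The ratio between the hairpin libraries differed from gene to gene. The level under hairpin 3 relative to hairpin 2 was 0.660 for SIGLEC10 (95% counting interval 0.624 to 0.699), 0.651 for SIGLEC7 (0.510 to 0.828), 0.734 for SIGLEC14 (0.627 to 0.858) and 0.276 for SIGLEC9 (0.109 to 0.621). It was 1.14 for SIGLEC6 (1.06 to 1.24) and 1.07 for SIGLEC8 (0.837 to 1.37). Beyond counting error, 7 of the 10 genes stood lower and 1, SIGLEC6, higher under hairpin 3. Among the 1119 genes called higher with ARID1B silenced the shares were 66.5% lower and 7.42% higher under hairpin 3. There is 1 library for each hairpin, so these ratios have no replicate check.

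Genes of eosinophils and mast cells, the cells in which SIGLEC8 is best known, also differed between the hairpins, not all in the same direction. Of 13 such markers 11 were tested, 8 rose and 0 fell (5.49% and 3.21% of all genes tested), with a list median of 2.20. The summed level of these markers was 93.5 CPM in the control, 2150 under hairpin 2 and 1132 under hairpin 3. Relative to hairpin 2, hairpin 3 gave 0.449 times the level of EPX, the eosinophil peroxidase, and 0.477 times that of HDC, the histamine-forming enzyme. For the mast cell tryptases TPSAB1 and TPSB2, which were chosen after their values were seen, it gave 1.56 times (1.38 to 1.76) and 1.16 times (1.002 to 1.33). The ratio was 0.563 for PRG2 and 0.198 for CLC, but 1.37 for PRG3 (0.985 to 1.92) and 1.08 for CPA3 (0.843 to 1.39). Under hairpins 2 and 3 MS4A2 had 74 and 40 counts, CCR3 22 and 12, and IL5RA 20 and 26. CPA3, MS4A2, CCR3 and IL5RA were also named after their values were seen. The high-affinity IgE receptor gene FCER1A had 0 counts in every library and KIT 3, 6 and 6. The part of such cells in the SIGLEC values was not tested, and in bulk RNA a change in the number of cells of a type cannot be told apart from a change in RNA per cell. EPX, HDC, PRG2 and CLC, of the 8 that rose, did not pass with robust empirical Bayes.

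Of the 16 other SIGLEC genes and pseudogenes with a row, 4 were tested and 1 passed. SIGLEC17P, a transcribed pseudogene that lies between SIGLEC7 and CD33, rose 20.1-fold, from 57 counts to 1372 and 882 (log2 4.33 ± 0.314 SE, edgeR adjusted p = 7.8e-07). Of its 50-base windows 0.207% occur in other genes. SIGLEC22P, next to CD33, had 119, 212 and 145 counts (log2 0.61 ± 0.301) and did not pass. SIGLEC16 (13, 5 and 5 counts, -1.34 ± 0.726) and SIGLECL1 (10, 8 and 11, -0.05 ± 0.678) did not pass either. SIGLEC1, SIGLEC11, SIGLEC15 and MAG had at most 7 counts in any library. All of these except SIGLEC17P were named after their values were seen.

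Position along the cluster was not used to choose the genes. Between SIGLEC9 and SIGLEC14 the table holds 41 rows that are not family genes, of which 18 were tested, 8 rose and 0 fell (5.49% and 3.21% of all genes tested). Of these 8, SIGLEC17P is a relative and 4 share exon sequence with a family gene, the antisense genes of SIGLEC7, SIGLEC10 (2) and SIGLEC6. Of the 11 tested rows that are neither, 3 rose. CEACAM18, of the carcinoembryonic antigen family, rose from 3 counts to 29 and 18 (log2 2.94 ± 0.829, edgeR adjusted p = 0.0369). NKG7, a granule membrane protein of cytotoxic lymphocytes, rose from 1531 to 2734 and 1935 counts (0.63 ± 0.185, edgeR adjusted p = 0.0442), and ETFB, of mitochondrial electron transfer, from 887 to 1390 and 1190 (0.56 ± 0.164, edgeR adjusted p = 0.0434). NKG7 and ETFB did not pass with upper quartile factors, a filter of mean CPM 1, robust empirical Bayes or DESeq2. ZNF175, between SIGLEC6 and SIGLEC5, had 541, 552 and 603 counts (0.11 ± 0.177).

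The formyl peptide receptor genes, which sense bacterial peptides, lie beyond SIGLEC14 and were picked by name. Rows between SIGLEC14 and FPR1, and rows beyond SIGLEC9, were not examined. The formyl peptide receptor genes all rose. FPR1 went from 5 counts to 74 and 32 (log2 3.40 ± 0.771, edgeR adjusted p = 0.0102) and FPR2 from 16 to 140 and 68 (2.72 ± 0.554, edgeR adjusted p = 0.00486). FPR3 had 0, 26 and 7 counts, at least 8.95-fold higher under hairpin 2 and at least 2.32-fold higher under hairpin 3 when the control is set at 3 counts. It did not pass with robust empirical Bayes. With hairpin 3 alone, FPR1 stood at 6.38, FPR2 at 4.23 and CEACAM18 at 5.98 times the control level. With a prior count of 2, which lowers ratios of genes with few control counts, the log2 ratios were 2.27, 1.95 and 1.99.

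**Figure D3:**
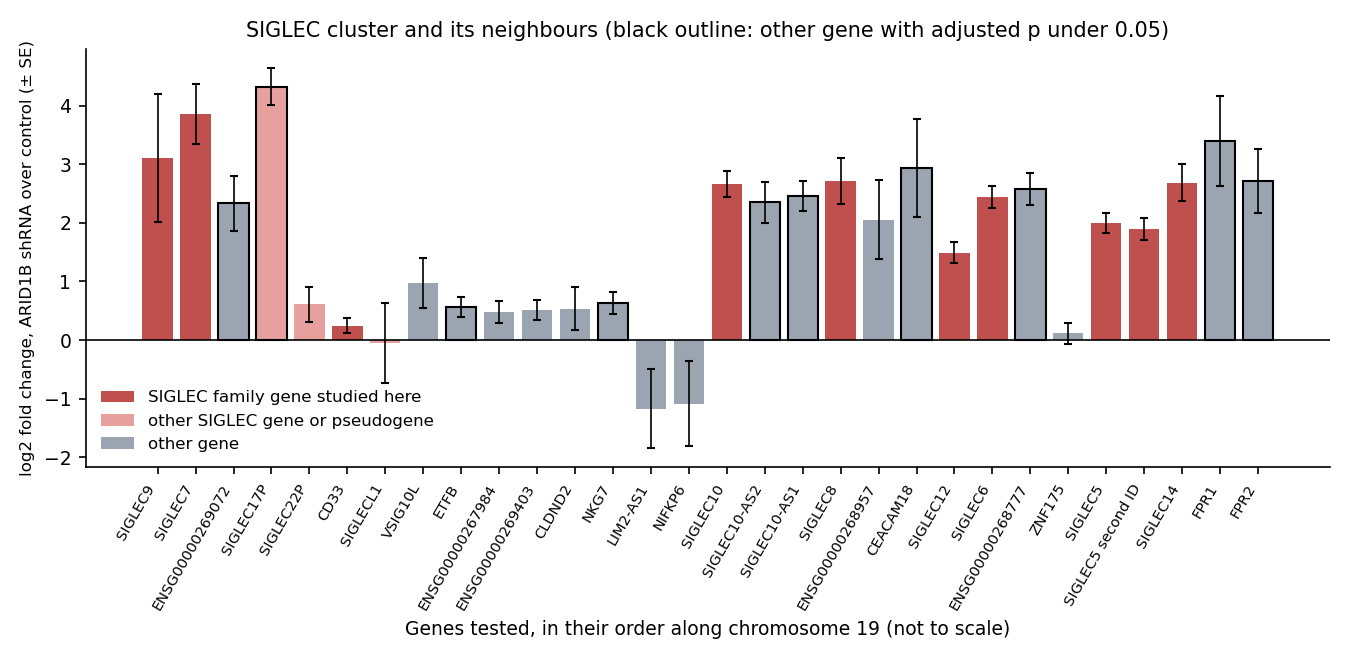
Log2 fold change (± SE) of the tested genes in the SIGLEC cluster, and of FPR1 and FPR2 beyond it, in their order along chromosome 19. The order is not to scale, and FPR3, at 0 control counts, is left out. Family genes other than CD33 stand between 1.49 and 3.85, while CD33 is at 0.25 and ZNF175 at 0.11.

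The signalling partners of these receptors rose in part. Of 16 kinases, phosphatases and adaptors 7 rose and 0 fell, with a list median of 0.39 (all genes tested -0.01). Of all genes tested 5.49% were called higher and 3.21% lower, for comparison here and in the lists that follow. FGR (log2 1.73 ± 0.362) and LYN (0.92 ± 0.134), kinases of the Src family, which phosphorylates ITIMs, rose, LYN from 2501 counts to 4654 and 4706. TYROBP, which encodes DAP12, the adaptor of SIGLEC14, rose 3.13-fold, from 292 counts to 1104 and 690 (1.64 ± 0.255, edgeR adjusted p = 5.4e-04), and HCST, which encodes the related adaptor DAP10, 2.23-fold (1.16 ± 0.188). PTPN6, which encodes SHP-1, rose from 7610 counts to 13428 and 11946 (0.76 ± 0.143), and the exchange factor VAV1 by 0.64 ± 0.144. PTPN11, which encodes SHP-2, stood at 0.04 ± 0.135 and INPP5D, the inositol phosphatase SHIP1, at 0.09 ± 0.141. These last 4 genes were singled out after their values were seen. Another annotated gene covers 50.1% of the HCST exons. TYROBP and FGR did not pass with robust empirical Bayes, nor FGR with a filter of mean CPM 1.

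Other ITIM receptors of myeloid cells were compared as receptors of like function outside the cluster. Of 15 with a row 13 were tested, 3 rose and 0 fell, with a median of 0.74. CD300A rose 4.44-fold (log2 2.15 ± 0.242), LILRB1 by 1.58 ± 0.249 on the log2 scale and CD300LF 2.79-fold (1.48 ± 0.198). Of 11 receptors and subunits that signal through DAP12 or the Fc receptor gamma chain 9 were tested, 5 rose and 0 fell, with a median of 0.61. They were CD300LB (1.77 ± 0.314), LILRA1 (1.47 ± 0.304), LILRA2 (1.46 ± 0.162), FCER1G (0.77 ± 0.215) and SIRPB1 (0.61 ± 0.167). FCER1G and SIRPB1 did not pass with robust empirical Bayes or with a filter of mean CPM 1, and FCER1G also not with DESeq2.

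On the side of the ligand, the enzymes that make sialic acid did not pass. Of 8 genes of its synthesis and transport 0 rose and 0 fell (edgeR, 0 also in DESeq2 and 0 at an unadjusted p under 0.05), with a median of -0.02. CMAS, which activates sialic acid, had 4238, 4017 and 4033 counts (log2 -0.05 ± 0.128) and NANS, which makes its phosphate, 2479, 2298 and 2292 (-0.09 ± 0.133). Of 6 sialidases and O-acetylation genes 5 were tested and 0 passed (edgeR, 0 also in DESeq2; 1 at an unadjusted p under 0.05), with NEU1 at 0.25 ± 0.155 and NEU3 at -0.26 ± 0.136. Of 20 sialyltransferases 12 were tested, 3 rose and 0 fell, all 3 of the ST3GAL group, which attaches sialic acid in alpha-2,3 linkage. ST3GAL2 rose 2.07-fold, from 2689 counts to 5850 and 5125 (1.05 ± 0.145, edgeR adjusted p = 1.8e-04), ST3GAL6 1.49-fold (0.57 ± 0.137) and ST3GAL5, the GM3 synthase, 1.77-fold (0.83 ± 0.247). ST3GAL5 did not pass with upper quartile factors, a filter of mean CPM 1, robust empirical Bayes or DESeq2.

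Among 8 carriers of siglec ligands and glycan sulfotransferases with a row 7 were tested, 3 rose and 1 fell. CD52, a small glycoprotein bound by SIGLEC10, rose 4.03-fold (log2 2.01 ± 0.33), CHST2 2.11-fold (1.08 ± 0.23) and PTPRC, the phosphatase CD45 that CD22 can bind, 1.56-fold (0.64 ± 0.17). LGALS3BP, a secreted glycoprotein that siglecs can bind, fell by 0.96 ± 0.166 on the log2 scale (1073, 495 and 593 counts, edgeR adjusted p = 0.00135). PTPRC did not pass with robust empirical Bayes or a filter of mean CPM 1.

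Of 8 transcription factors of the lineages that carry these receptors 5 rose and 0 fell (5.49% and 3.21% of all genes tested). GATA1 rose from 57 counts to 942 and 510 (log2 3.70 ± 0.374), GATA2 by 1.38 ± 0.142, IRF8 by 1.05 ± 0.216, CEBPA by 0.74 ± 0.141 and CEBPB by 0.71 ± 0.174. Another annotated gene covers 43.4% of the CEBPA exons. GATA1 and CEBPB did not pass with robust empirical Bayes, and CEBPB also not with a filter of mean CPM 1. The 10 promoter windows, of 300 bases each, held 0 matches to AGATAA or TGATAA, which 16.3% of all RefSeq windows hold. Binding was not measured, and a part of GATA factors in the SIGLEC values was not tested.

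**Figure D4:**
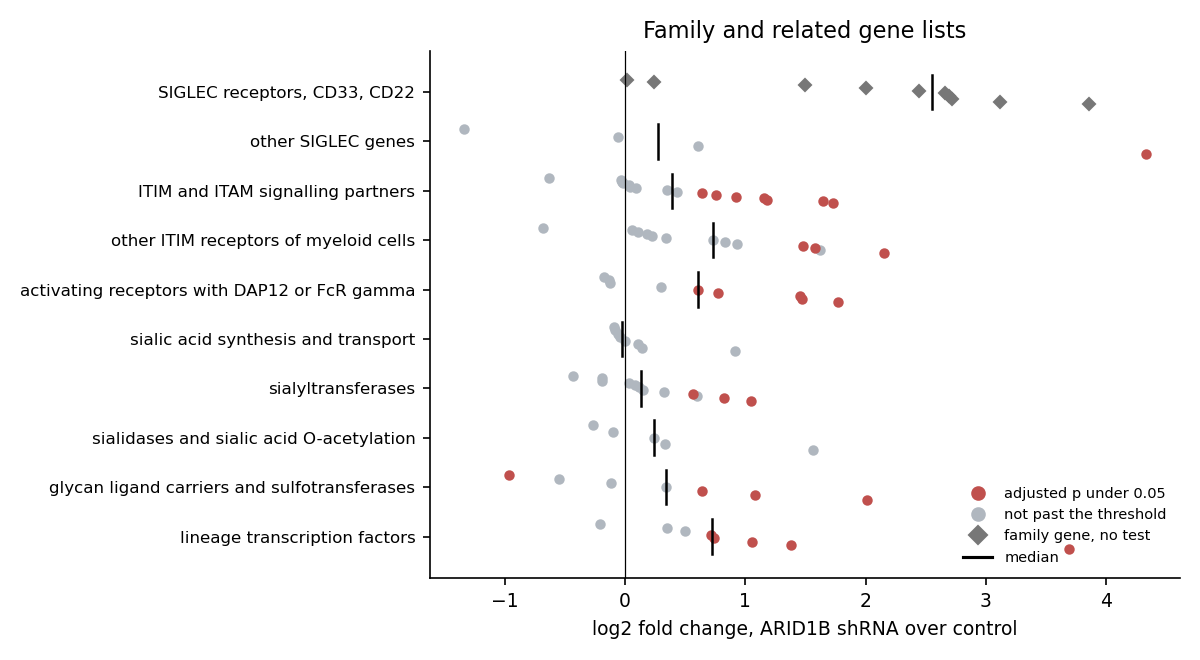
Log2 fold change of each tested gene in the family and in the related lists; red points passed the threshold, grey points did not, and the vertical bar is the list median. The family genes, drawn as diamonds without a test, have a median of 2.55, and the medians of the other lists drawn lie between -0.02 and 0.74; the eosinophil and mast cell markers, not drawn, have a median of 2.20.

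Genes with the most similar pair of log2 ratios were sought for SIGLEC7 and SIGLEC8, the 2 family genes with the highest fold change that had a mean of 1 CPM or more, among 14968 genes at that level. Likeness was the distance between the pairs of log2 ratios (hairpin 2 and hairpin 3, each over the control, prior count 2), so it rests on 3 libraries with a shared control. Nearest to SIGLEC7 (3.90 and 3.29) were PNPLA1 (3.99 and 3.30), GATA1 (4.05 and 3.11), TMPRSS4 (3.64 and 3.18), FXYD6 (3.64 and 3.18) and TGM3 (3.84 and 3.01). Nearest to SIGLEC8 (2.57 and 2.66) were WNT5B (2.52 and 2.55), FAM30A (2.39 and 2.64), TMIGD3 (2.78 and 2.63), PPP1R1B (2.74 and 2.80) and ENSG00000268777 (2.35 and 2.73), the antisense gene over SIGLEC6. The order describes these libraries only.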

How the data were processed

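RNA sequencing of 3 NB4 libraries was analysed, 1 carrying the control hairpin and 2 carrying hairpins to ARID1B. The authors deposited whole-number read counts per Ensembl gene ID, not normalized. STAR, featureCounts and Cufflinks and the build hg19 are named per the submitters' processing notes; the sources used here do not give their order, the annotation release or the strand setting. Symbols were matched by ID for 51996 of 57773 rows; CD24, PECAM1, SIGLEC25P, SIGLEC26P and SIGLEC28P of the lists were matched to none. GENCODE 29 gave exon length, gene order and shared exons, and RefSeq the promoter windows.

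Counts were fitted over the whole table in R 4.3.3 with edgeR 4.0.16 (filterByExpr with a minimum count of 10, TMM, estimateDisp, glmQLFit with legacy = FALSE, glmQLFTest, two-sided, Benjamini-Hochberg adjusted p under 0.05); DESeq2 1.42.0 was an alternative. The fit estimated a common biological coefficient of variation of 0.11 and was checked on simulated counts. With 1 residual degree of freedom the spread comes from the hairpin libraries and is drawn towards the trend over all genes. The lone control is assumed to vary like the hairpin libraries, and this spread may be technical. SE is the log2 fold change over the square root of the F statistic. Ratios of single libraries carry exact conditional binomial 95% intervals; intervals and floors cover counting error only, as reads carry no molecular identifiers. Promoters were aligned with Biopython 1.88. The family and the lists were chosen with earlier results of these data known. Named genes are every family gene, ARID1B, up to 5 called genes of each list (otherwise the 2 with most counts), called neighbours and the 5 genes most like each of SIGLEC7 and SIGLEC8; a few genes under this rule are not reported here. Settings tried were other scalings, filters, empirical Bayes methods, prior counts and leaving out a hairpin library.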

Additional observations from a re-analysis of the deposited data

How the results depend on the processing

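The number of genes called, 1774, was 960 with a filter of mean CPM 1, 1052 with DESeq2 and 0 without a filter (edgeR, 3218 at an unadjusted p under 0.05 there). Without a filter the calls in the related gene lists went from 28 to 0 and ARID1B, at -1.23, had an adjusted p of 0.464 (from 4.9e-10 to 0.464 over its alternatives). The number of family genes at least 2-fold higher, 8, stayed within 1.5 times in every setting, among them prior counts of 0.5 and 5 and leaving out either hairpin library (8 in both). Without hairpin 2 these 8 include SIGLEC9 by its point value only. The fold change of SIGLEC9, 3.11 on the log2 scale, fell to 1.31 without hairpin 2. That value carries a prior count of 2, which lowers ratios of genes with few control counts. Without the prior count the ratio of SIGLEC9 under hairpin 3 was 3.98, with an interval from 0.795 to 38.5. Leaving out hairpin 2 also lowered the fold of FPR1, FPR2, CLC, EPX and HDC by over 1.5 times. On the log2 scale CLC went from 4.64 to 2.48, EPX from 5.21 to 4.52 and HDC from 4.55 to 3.92. CEACAM18 went from 2.94 to 1.99 with the prior count, but stood at 5.98 times the control without it. Of 55 called genes under the naming rule outside the family, ARID1B included, 49 had a value in every tested setting, and 31 of these were lost only without the filter; 6 had no value with a filter of mean CPM 1 and 2 none with DESeq2. Among the 55, 18 were lost with robust empirical Bayes, 12 with a filter of mean CPM 1, 8 with DESeq2, 3 with upper quartile factors and 0 with library size alone or the legacy fit. With either hairpin library left out no test was possible, as each group then holds 1 library, so counts of calls have no value there. Control counts limit SIGLEC7, SIGLEC8, SIGLEC9 and CD22. No paired analysis was possible because the control library carries no hairpin number.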

Other observations

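Markers of other blood cells were measured in the same libraries. Of 7 monocyte and macrophage markers 6 were tested, 3 rose and 0 fell, among them FCN1 (log2 1.52 ± 0.26) and CD68 (0.88 ± 0.151), with a list median of 1.53. Another annotated gene covers 85.8% of the CD68 exons. CD14 had 5, 16 and 13 counts, and CSF1R, the receptor of the macrophage growth factor, 468, 396 and 290 (log2 -0.42 ± 0.219), which did not pass. FCN1 did not pass with robust empirical Bayes or DESeq2. Of 7 markers of mature neutrophils 2 were tested and CXCR2 rose (1.12 ± 0.309), a call lost with robust empirical Bayes, DESeq2 and a filter of mean CPM 1, while FCGR3B had 1, 3 and 0 counts. Of 7 NK and T cell markers 4 were tested and CD3D (1.17 ± 0.197) and NKG7 rose, with KLRD1 at 0, 0 and 3 counts. Of 6 B cell markers 4 were tested and 0 passed (edgeR; 1 at an unadjusted p under 0.05, 0 in DESeq2), with a list median of -0.16 and CD79B at 576, 1138 and 742 counts.

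Of 7 promyelocyte markers PRTN3 rose 4.31-fold (2.11 ± 0.151) and CTSG (-1.81 ± 0.141) and MS4A3 (-0.54 ± 0.142) fell, the last not with DESeq2 or a filter of mean CPM 1. MPO (682719, 836096 and 741714 counts, log2 0.23 ± 0.295), AZU1 (0.27 ± 0.135) and CEBPE (0.35 ± 0.13), named after their values were seen, did not pass. ELANE, neutrophil elastase and a defining promyelocyte gene, had only 10, 4 and 1 counts and did not pass either. Genes given here by counts alone were chosen after their values were seen. The part of any of these cell types in the SIGLEC values was not tested.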
